A study of Drosophila melanogaster with 9 samples.

Results

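Hemocytes of larvae carrying the human fusion kinase BCR-ABL p210 were compared with hemocytes of control larvae across all genes of the Drosophila melanogaster count table. The comparison uses 6 of the 9 libraries of the study, 3 labelled p210 and 3 labelled control, chosen by their column names alone. The control is the W1118 strain. The p210 group has the genotype UAS-BCR-ABLP210, a transgene that needs the yeast activator GAL4 to be transcribed. The other 3 libraries are UAS-BCR-ABLT315I, a kinase variant that imatinib does not block. Their values are set beside those of p210. They also enter the gene filter, the scaling and the estimate of spread behind every test of p210 against control. Every library was made from the hemocytes of 300 pooled third-instar larvae, kept at 25 °C for the experiment, so a library is a pool and not an animal. A maintenance temperature of 18 °C is given for all libraries. The sources used here name neither the GAL4 driver nor the cells it acts in. Transgene and strain background cannot be told apart in this comparison. The transgene itself, a human sequence, was not analysed here. Of 17874 genes listed, 9978 had enough counts to be tested.

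BCR-ABL arises in chronic myeloid leukaemia from a chromosome translocation, which leaves the Abl tyrosine kinase constantly active. Abl kinases act on actin, adhesion and cell movement, and the fusion kinase feeds into several growth pathways, JAK/STAT among them. Larval blood holds plasmatocytes, which engulf microbes and debris and secrete matrix, crystal cells, which melanize wounds, and lamellocytes, large flat cells that wrap parasites and are rare in healthy larvae. Bleeding opens the body wall, so RNA of fat body, muscle, gut or gonad can enter a preparation.

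The depth of the control libraries was 5.4, 8.24 and 9.84 M counts, against 18.16, 14.95 and 14.48 M in p210. At these depths 3 counts are 0.284 to 0.553 CPM (counts scaled to library size with edgeR's TMM factors) in the control and 0.17 to 0.22 CPM in p210, a limit that covers counting error only. Ribosomal RNA genes held 0.245 to 0.672% of control counts and 0.0224 to 0.131% of p210 counts. The coefficient of variation over 3 libraries had a median of 23.1% in the control and 15.8% in p210, and was the larger in the control for 66.1% of genes. The biological coefficient of variation estimated by edgeR was 0.402 in the control and 0.199 in p210. The part of depth, ribosomal RNA share and spread in the results below was not tested.

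The libraries carried the markers of their labelled cell type. Hml, the hemolectin gene used as a plasmatocyte marker, was among the most abundant genes in every library. It stood at 10622.2, 12495.7 and 11629.8 CPM in the control and at 8785.1, 14077.4 and 15789.1 CPM in p210. The groups overlapped, and Hml was not called (log2 fold change p210 minus control 0.15 ± 0.23 SE, edgeR adjusted p = 0.596). NimC1, a phagocytosis receptor of plasmatocytes, was at 323.7, 259.2 and 588.7 CPM in the control and at 1279.2, 1254.2 and 1047.1 CPM in p210. All p210 libraries were above all control libraries, and NimC1 rose by 1.61 ± 0.27 (edgeR adjusted p = 0.00175). LanA, the laminin alpha gene that plasmatocytes express strongly, was at 9432.0 to 11439.0 CPM in the control and 9022.3 to 14149.1 CPM in p210, with no call. Drosophila Abl, the fly's own gene, went from 174.2 ± 108.2 CPM in the control to 776.2 ± 218.4 CPM in p210 (mean ± SD, n = 3 each). Its log2 fold change was 2.15, or 2.76 without control replicate 3, the highest control library at 299.1 CPM. A contribution of transgene reads to this gene was not tested.

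Over all genes, many abundant genes rose modestly and many rare genes fell steeply. edgeR's quasi-likelihood test called 5700 of the 9978 tested genes at an adjusted p under 0.05, which is 57.1% of them. Of these, 2681 were higher in p210 (26.9% of tested genes) and 3019 lower (30.3%). At least 2-fold changes were called for 851 genes upward (8.53%) and 2652 downward (26.6%). The 3 p210 libraries lay wholly above or below the 3 control libraries for 6145 genes (61.6%). Each share below is read beside these. The balance of directions depends on the scaling: 47.0% of called genes were higher with TMM factors, 36.0% with upper-quartile factors and 12.6% when libraries were scaled to the summed plasmatocyte markers. That last scaling moved the median log2 fold change of all tested genes from 0.05 to -0.45. Its markers summed to 29059.6, 27079.1 and 31696.0 CPM in the control and to 32364.3, 46366.5 and 49939.4 CPM in p210. They include Ppn, an abundant gene that was called higher itself (1.70), so this scaling is no measure of plasmatocyte number. Directions are given relative to TMM scaling, and a rise smaller than the shift of that median turns or vanishes under the plasmatocyte scaling. Larger rises can lose their call too: 514 genes were called higher under it, against 2681 with TMM factors.

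Abundance separated the directions, as the plot of fold change against mean level shows. Among genes with a mean of 300 to 1000 CPM over both groups, 56.0% were called higher and 9.67% lower. Among genes at 3 to 10 CPM, 10.3% were called higher and 53.9% lower. The share called higher was 22.8% at 10 to 30 CPM, 36.9% at 30 to 100 CPM, 49.4% at 100 to 300 CPM and 27.3% above 1000 CPM. Detection followed the same line. At least 1 CPM in all 3 libraries was reached by 8968 genes in the control and 8245 in p210, of which 8000 were shared, 968 were control genes only and 245 were p210 genes only. The shallower libraries were therefore those with more genes over this level.

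**Figure D1:**
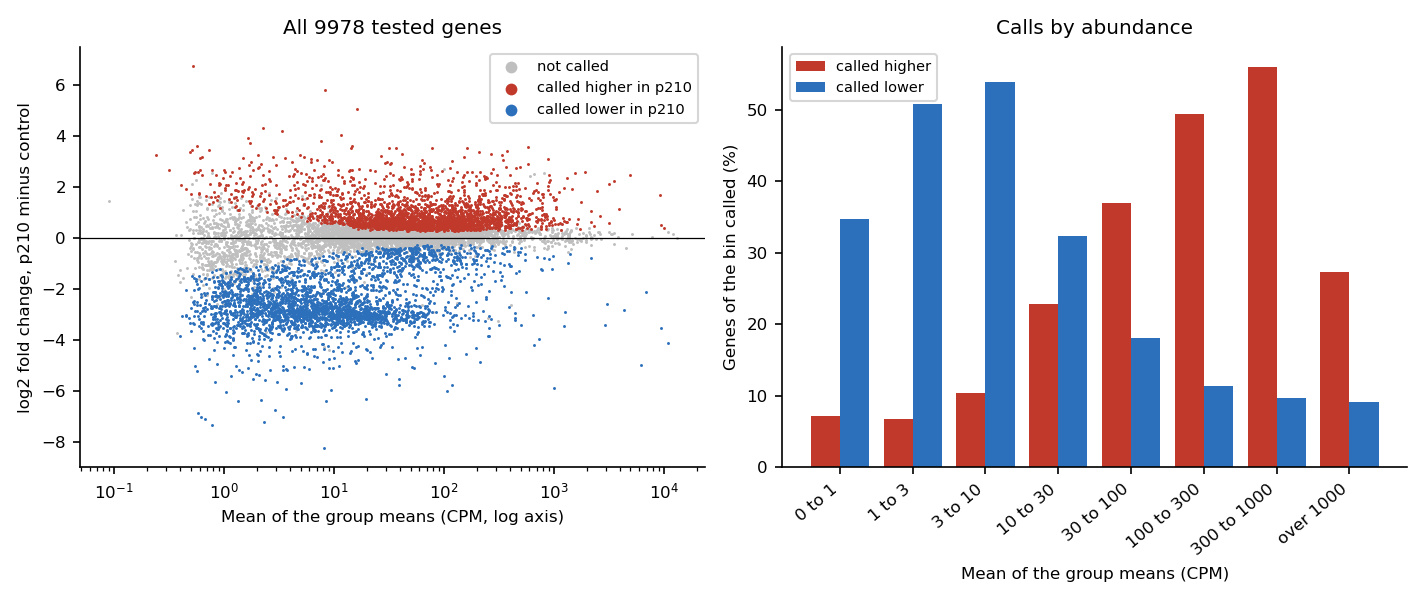
Left, every tested gene as a point, with the mean of the control and p210 means in CPM on a log axis and the log2 fold change p210 minus control on the other axis; red and blue points are called by edgeR at an adjusted p under 0.05. Right, the share of genes called higher and lower in bins of the same mean: the higher share reaches 56.0% at 300 to 1000 CPM and the lower share 53.9% at 3 to 10 CPM.

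Falls varied in size, from 367 genes between -1 and 0 on the log2 scale (12.2% of falls) to 133 below -4 (4.41%). Of the 3019 genes called lower, 1415 (46.9%) had a log2 fold change between -3.5 and -2.5, a band that is visible in the plot and was chosen after its values were seen. These genes had a median control mean of 14.3 CPM and a median p210 mean of 1.88 CPM. Control replicate 2 was the highest control library for 1121 of them (79.2%), and 818 (57.8%) were known by an annotation number alone. Genes known by such a number were 3716 of the 9978 tested and 1508 of the 3019 called lower. Of the 133 genes that fell by more than 4, control replicate 1 was the highest control library for 79 (59.4%). The rises also followed individual control libraries. Of the 851 genes at least 2-fold higher in p210, control replicate 3 was the highest control for 741 (87.1%), control replicate 1 for 62 and control replicate 2 for 48. Of the 2652 genes at least 2-fold lower, control replicate 2 was the highest control for 1788 (67.4%), control replicate 1 for 670 and control replicate 3 for 194. Control replicate 1 was the lowest control for 1642 of these falls. On the log2 scale it lay over halfway from the other controls to p210 for 1206 of them. Control replicate 3 did so for 333 of the 851 rises. How often each control library is the highest over all tested genes was not computed.

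**Figure D2:**
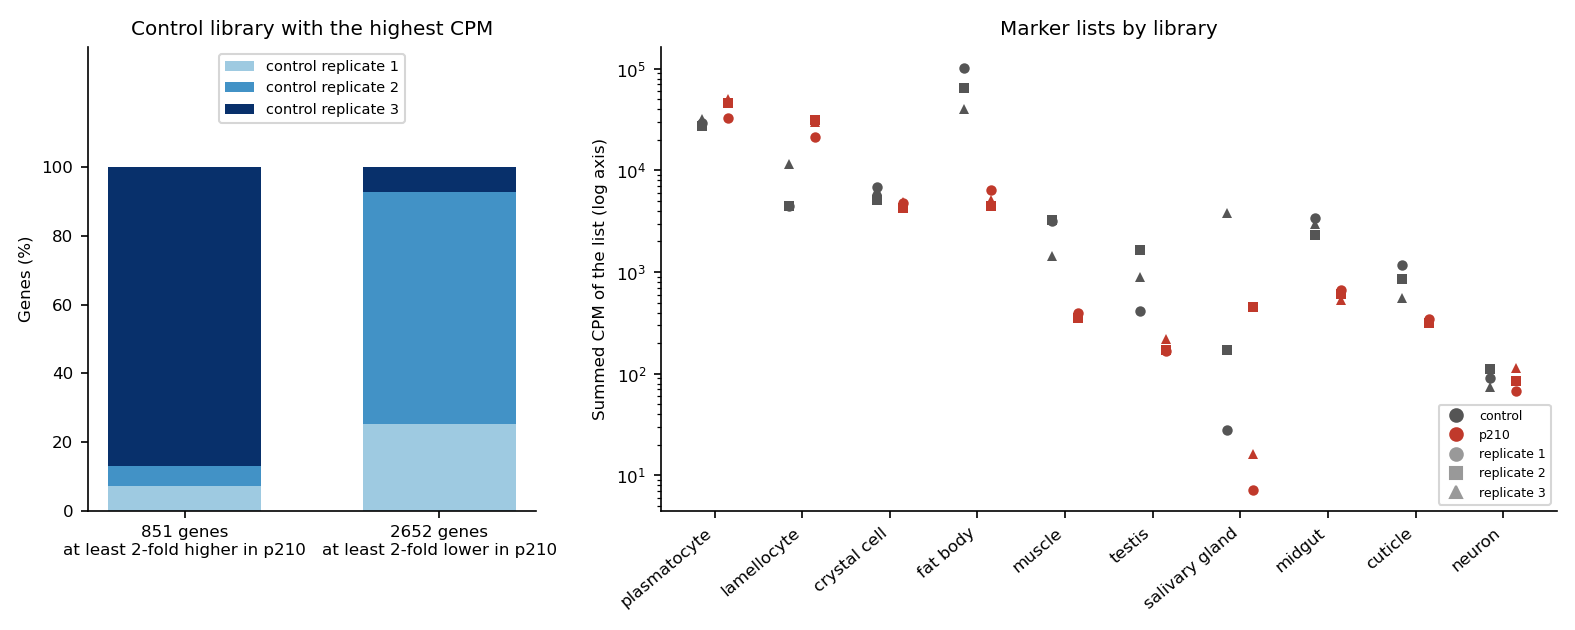
Left, the share of genes for which each control library had the highest CPM of the 3, among genes at least 2-fold higher and at least 2-fold lower in p210. Right, the summed CPM of marker lists in each of the 6 libraries on a log axis; control replicate 3 lies nearest to p210 for lamellocyte markers, control replicate 2 is highest for testis genes and control replicate 1 for fat body genes.

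The largest losses in CPM included the genes of larval storage proteins. Lsp1gamma, a larval serum protein gene of the fat body, was at 34547.1, 15821.6 and 11674.8 CPM in the control and at 1480.5, 1018.1 and 1128.4 CPM in p210. It was the largest loss in CPM, with a log2 fold change of -4.10 ± 0.46, or -3.46 without control replicate 1, its highest library. The storage protein genes Lsp1beta and Lsp1alpha went from means of 17612.1 and 12213.8 CPM to 1533.1 and 389.6 CPM. The other large losses were regucalcin, a calcium-binding protein gene (11232.0 to 2580.0 CPM), the lipoprotein gene apolpp (7654.3 to 1074.7 CPM), Fbp1 (5338.1 to 501.9 CPM), the small heat shock gene Hsp23 (5234.9 to 878.6 CPM) and Obp99b (2259.4 to 207.1 CPM). Every one of these 8 losses passed the test (edgeR adjusted p from 0.000507 to 0.0013), with the lowest control library above the highest p210 library.

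Among the gains, Ppn, which encodes the matrix protein papilin, was at 3634.0, 3165.5 and 6335.8 CPM in the control and at 9199.8, 16620.4 and 16844.6 CPM in p210 (log2 fold change 1.70 ± 0.32, edgeR adjusted p = 0.00225). All p210 libraries were above all control libraries. The spectraplakin gene shot, whose product links actin to microtubules, was at 757.4, 931.7 and 2857.5 CPM in the control and at 5524.7, 9886.4 and 9865.6 CPM in p210. The filamin gene cher, which encodes an actin crosslinker, had control values of 677.9, 668.8 and 2354.9 CPM and p210 values of 4671.1, 6957.0 and 5939.2 CPM. In both, control replicate 3 lay between the other controls and p210. The log2 fold changes were 2.47 ± 0.48 for shot and 2.25 ± 0.46 for cher, and 3.29 and 3.09 without that library. Cp1, a cathepsin L protease gene of lysosomes, went from 1080.0 ± 591.7 to 3834.2 ± 416.9 CPM (1.83 ± 0.32), and Msp300, which encodes a nesprin that ties nuclei to actin, from 2450.9 ± 308.6 to 5383.6 ± 2447.8 CPM (1.13 ± 0.30). The call of Msp300 was lost under plasmatocyte scaling (0.52, edgeR adjusted p = 0.14, against 0.00134 to 0.14 over the alternatives). The cytoplasmic actin gene Act5C was at 8808.7 ± 1208.1 and 11567.6 ± 309.6 CPM. It was called (0.39 ± 0.15, edgeR adjusted p = 0.0423), but 12 of 15 alternatives did not call it and plasmatocyte scaling turned its sign (-0.10). The translation factor gene eEF1alpha1, highly abundant in both groups, was at 13248.3 ± 1215.3 and 13106.8 ± 1105.9 CPM with no call.

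Some of the largest rises started from a low level in all 3 control libraries. Tie, a receptor tyrosine kinase gene on chromosome 3L (4510698 to 4532145, dm6), was at 2.95, 4.74 and 7.19 CPM in the control and at 37.1, 67.5 and 72.9 CPM in p210, a log2 fold change of 3.53 ± 0.37 (edgeR adjusted p = 0.000566). Ca-beta, the auxiliary subunit gene of voltage-gated calcium channels (2L, 11156118 to 11203544), was at 1.29, 0.882 and 0.757 CPM and at 12.6, 38.4 and 43.8 CPM (5.05 ± 0.53, edgeR adjusted p = 0.000593). For both genes, every p210 library was above every control library. dpr4, a gene of the Dpr family of neuronal immunoglobulin-domain proteins (3R, 11533483 to 11542949), had 2, 4 and 1 counts in the control and 119, 374 and 218 counts in p210. In CPM these were 0.0947 to 0.441 against 6.73 to 26.5, a log2 fold change of 5.79 ± 0.66 (edgeR adjusted p = 0.000734). SPR, the sex peptide receptor gene on X, rose from 1.24 ± 1.02 to 22.2 ± 14.5 CPM (4.03 ± 0.70, or 4.86 without control replicate 3). ChLD3 rose from 2.26 ± 1.06 to 26.9 ± 14.3 CPM (3.60 ± 0.48). Cadps had the smallest p of the rises together with CG10407 after rounding. It is a gene for the release of dense-core vesicles on chromosome 4, and was at 97.2, 102.4 and 123.2 CPM in the control and at 269.4, 302.8 and 326.9 CPM in p210 (1.48 ± 0.13, edgeR adjusted p = 0.000507).

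Another kind of large rise had control replicate 3 part of the way to p210. ItgaPS5, an integrin alpha subunit gene, was at 25.3, 23.4 and 516.1 CPM in the control and at 1464.3, 1912.4 and 1437.3 CPM in p210. Control replicate 3 was far above the other controls and still below every p210 library. The log2 fold change was 3.09 ± 1.03 (edgeR adjusted p = 0.028), 6.01 without control replicate 3, and the call was lost in 8 of 14 alternatives (edgeR adjusted p up to 0.127). The family member ItgaPS4, at another site on 2R and a lamellocyte marker, had the same order, at 7.38, 26.5 and 557.6 CPM against 1197.9, 1182.1 and 980.1 CPM. It was not called (2.50 ± 1.16, edgeR adjusted p = 0.0912), but was without control replicate 3 (5.96, edgeR adjusted p = 6.36e-05) and by limma-voom (0.0155), within a range of 6.36e-05 to 0.288. The serine protease gene Sp212 (0.553, 0.661 and 15.5 CPM against 64.5 to 74.2 CPM) had a log2 fold change of 3.51 ± 0.84, or 6.73 without control replicate 3. Liprin-gamma, of the liprin scaffold family, was at 3.51 ± 0.98 and 6.38 without that library, and lost its call under plasmatocyte scaling (edgeR adjusted p = 0.0786, in a range of 1.04e-05 to 0.0786). hebe and zye were at 3.17 ± 0.77 and 3.26 ± 0.61, and at 5.16 and 4.16 without control replicate 3.

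Among the largest falls of genes with a symbol were secreted, glandular and epithelial genes. fon, which encodes a protein of the larval clot that is made in fat body, was at 4230.0, 926.0 and 753.7 CPM in the control and at 36.6, 24.5 and 38.8 CPM in p210. Its log2 fold change was -5.89 ± 0.85 (edgeR adjusted p = 0.00133), or -4.60 without control replicate 1. Idgf5, of the chitinase-like growth factors, was at 140.9, 60.4 and 31.2 CPM against 2.15, 1.06 and 0.951 CPM (-5.76 ± 0.88, or -4.95 without control replicate 1). The groups were apart in both, and control replicate 1 was the highest. The alpha-mannosidase genes LManV and LManVI, neighbours on 2L, were at 633.1, 48.8 and 13.8 and at 531.8, 38.5 and 19.3 CPM in the control, and at 7.69, 2.83 and 1.98 and at 7.63, 3.97 and 1.9 CPM in p210. Their log2 fold changes were -5.76 ± 1.43 and -5.42 ± 1.36. Without control replicate 1 the values were -2.84 and -2.62, without p210 replicate 1 -6.56 and -6.03, and for LManV without control replicate 3 -6.35. limma-voom did not call them (limma adjusted p = 0.102 and 0.0794, the highest over the alternatives). The cytochrome P450 gene Cyp9b1 fell by 5.94 ± 1.12 (-4.65 without control replicate 1, -6.56 without p210 replicate 3), and the cuticle gene Cpr78E by 5.10 ± 0.70 (-5.98 without p210 replicate 1). Eig71Ec and Eig71Ed belong to a family that larval salivary glands express under ecdysone. Together with the adjacent Pgant8, the 7 family members from Eig71Ea to Eig71Eg summed to 33.9, 72.7 and 157.8 CPM in the control and to 4.24, 14.7 and 4.76 CPM in p210. Eig71Ec fell from 160 counts over the control libraries to 2 over p210, which is 145-fold per effective library size (95% counting interval 39.5 to 1210). For Eig71Ed the counts were 126 and 1, or 229-fold (40.3 to 9100). These intervals cover counting error only.

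Other falls had small p-values. Argk1, the arginine kinase gene that buffers ATP in muscle, was at 309.2, 265.1 and 147.6 CPM in the control and at 22.7, 24.2 and 22.0 CPM in p210 (-3.39 ± 0.26, edgeR adjusted p = 0.000507). The muscle actin gene Act87E was at 39.1 to 68.9 CPM against 6.1 to 7.03 CPM (-3.04 ± 0.23). crb, which sets the apical side of epithelial cells, was at 33.4, 37.0 and 22.3 CPM against 2.15, 2.76 and 2.93 CPM (-3.56 ± 0.29). trol, the perlecan gene of basement membranes, fell from 681.9 ± 173.8 to 103.2 ± 12.9 CPM (-2.72 ± 0.23), and pain, a TRP channel gene of pain-sensing neurons, from 36.1 to 56.1 CPM to 5.1 to 7.57 CPM (-2.84 ± 0.23). None of the p210 libraries reached the lowest control library in any of these genes.

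**Figure D3:**
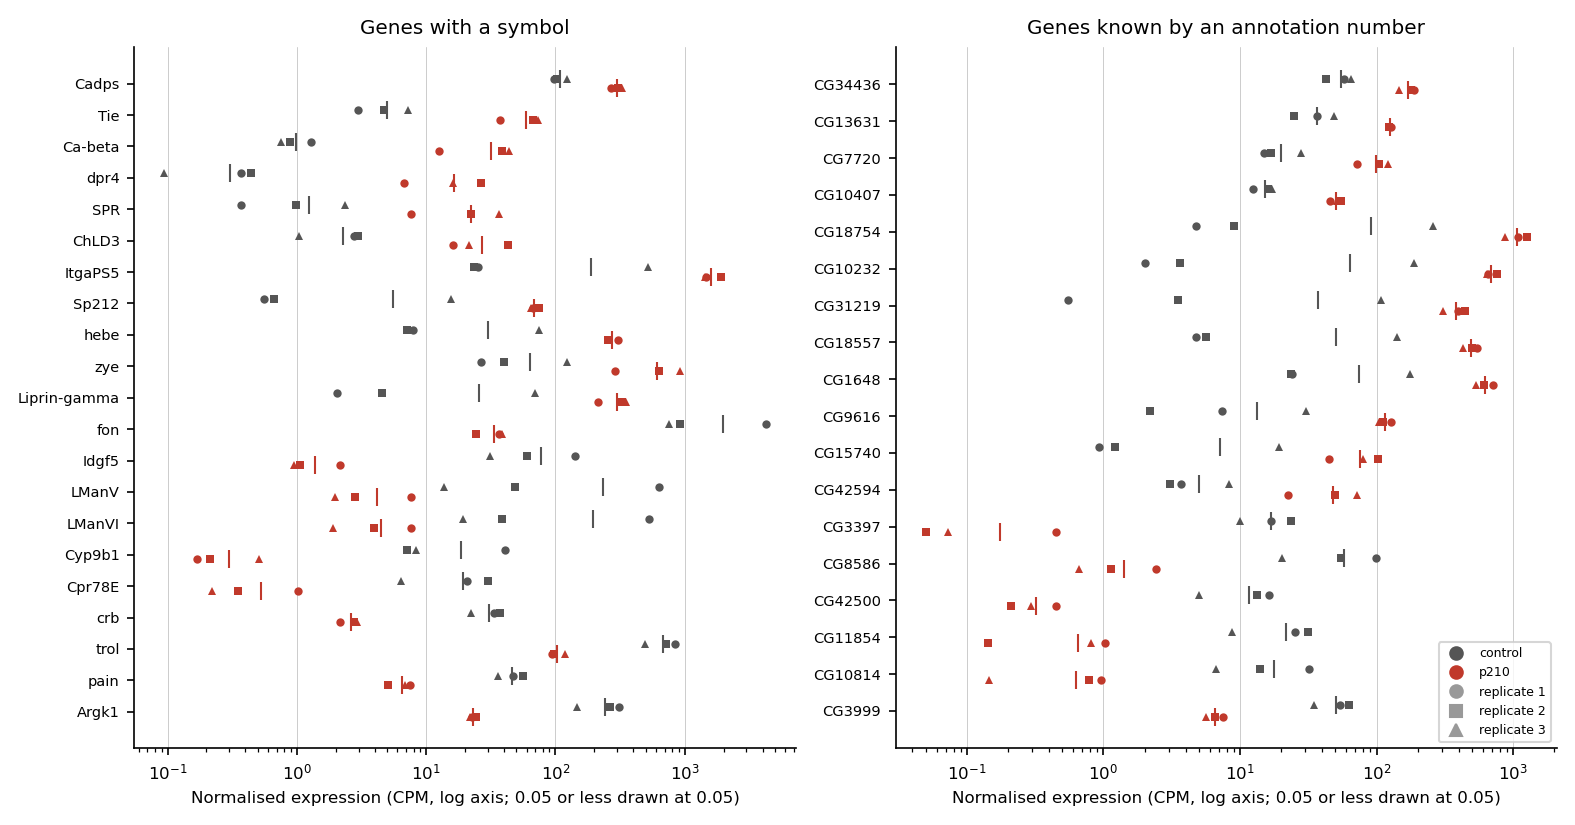
Normalised expression in CPM on a log axis for genes with a symbol (left) and genes known by an annotation number (right) in each of 6 libraries; grey marks are control, red marks p210, shapes are replicates and vertical ticks the group means. Values of 0.05 CPM or less are drawn at 0.05. In the middle of the right panel, control replicate 3 (grey triangle) stands far above the other controls, at 258.5 CPM for CG18754 against 4.8 and 9.04.

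Genes known by an annotation number made up 3716 of the tested genes, with 706 called higher (19.0%) and 1508 lower (40.6%). Their median log2 fold change was -0.26, against 0.17 for the 5807 protein-coding genes with a name, of which 1876 were higher (32.3%) and 1348 lower (23.2%). Under plasmatocyte scaling the medians were -0.76 and -0.32. Among those named for their rises, several are serine proteases or serine protease homologues in RefSeq's synonyms. CG18754, listed there as SP61, lies on 3R at 23684057 to 23686537. Its values were 4.8, 9.04 and 258.5 CPM in the control and 1084.0, 1261.2 and 867.6 CPM in p210. CG10232, listed as SP14, lies on the same arm at 23719343 to 23721625, with 2.03, 3.64 and 186.9 CPM against 658.6, 767.1 and 644.2 CPM. CG31219, on 3R as well, had 0.553, 3.53 and 106.9 CPM against 396.1, 444.8 and 308.8 CPM, and CG18557 on 2L had 4.8, 5.62 and 140.2 CPM against 541.7, 499.1 and 429.2 CPM. In all 4, control replicate 3 was far above the other controls, and the p210 libraries lay above it.

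The log2 fold changes of these 4 genes were 3.55 ± 1.19, 3.41 ± 1.27, 3.35 ± 1.20 and 3.27 ± 1.05, with edgeR adjusted p from 0.0244 to 0.0431. Without control replicate 3 they were 7.19, 7.82, 7.33 and 6.50, and every one was called. With control replicate 2 left out, none was called (edgeR adjusted p from 0.053 to 0.0849), and neither was any with a p210 library left out (0.0502 to 0.0875). For CG10232 the call was also lost without control replicate 1 (0.0568). Over all alternatives the adjusted p of the 4 genes ran from 9.16e-07 to 0.174. CG9616 and CG1648, at 3.06 ± 0.67 and 3.04 ± 0.70, were called under every alternative and were at 4.65 and 4.66 without control replicate 3. CG15740 was at 3.30 ± 0.84, 6.06 without control replicate 3, and not called under plasmatocyte scaling (edgeR adjusted p = 0.0516, the highest over the alternatives). CG42594 was at 3.22 ± 0.48, or 3.81 without control replicate 3.

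In other numbered genes that rose, control replicate 3 lay nearer to the other controls. CG13631 was at 36.5, 24.9 and 48.4 CPM in the control and at 127.7, 123.6 and 123.6 CPM in p210 (1.77 ± 0.20, edgeR adjusted p = 0.000731). CG34436, a serine protease homologue by RefSeq's synonym SPH201, was at 57.9, 42.8 and 64.9 CPM against 187.5, 177.4 and 146.6 CPM (1.63 ± 0.16). CG7720, with the RefSeq synonym dSLC5A1 of a solute carrier, was at 15.1, 17.0 and 27.8 CPM against 71.4, 104.8 and 122.2 CPM (2.30 ± 0.26). No p210 library overlapped a control library in any of them. CG10407, with the RefSeq synonym Jhbp5,, went from 15.3 ± 2.41 to 50.6 ± 4.82 CPM (1.72 ± 0.16).

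Numbered genes that fell ended at different levels in p210. For CG4151 the summed counts were 186 and 2, or 169-fold per effective library size (95% counting interval 46.1 to 1400). CG3397 was at 17.0, 23.8 and 9.94 CPM in the control and at 0.452, 0.0 and 0.0732 CPM in p210 (-6.40 ± 0.95, or -8.49 without p210 replicate 1, which held most of its p210 counts). CG8586, a serine protease homologue by its RefSeq synonym SPH58, was at 98.3, 54.9 and 20.2 CPM against 2.43, 1.13 and 0.659 CPM. It fell by 5.31 ± 0.74, with values of -4.64 without control replicate 1 and -5.96 without p210 replicate 1. CG42500 fell from 11.6 ± 5.90 to 0.319 ± 0.122 CPM (-5.11 ± 0.56) and CG11854 from 21.8 ± 11.7 to 0.655 ± 0.457 CPM (-5.01 ± 0.68). CG10814, with the RefSeq synonym gamma-BBH of an enzyme of carnitine synthesis, had a log2 fold change of -4.74 ± 1.10, or -3.93 without control replicate 1. CG3999 had the most even values, at 53.9, 62.6 and 35.0 CPM against 7.46, 6.51 and 5.64 CPM (-2.95 ± 0.23, edgeR adjusted p = 0.000507). CG46302 went the other way through 1 library: it had no count in the control and 12.3 CPM in p210 replicate 3, against 0.0565 and 0.142 CPM in the other p210 libraries.

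Long non-coding RNA genes numbered 348 among those tested, with 66 higher, 129 lower and a median of -0.35 (-0.82 under plasmatocyte scaling). Without control replicate 2 the higher count was 42. For lncRNA:CR44909 on 2L the summed counts were 399 and 2, or 362-fold (95% counting interval 99.6 to 3000). lncRNA:CR40469, near the tip of X at 122493 to 122706, was at 214.2, 320.3 and 100.8 CPM in the control and at 3.33, 2.2 and 4.46 CPM in p210 (-5.99 ± 0.66, edgeR adjusted p = 0.000644). lncRNA:CR43835 on X fell from 38.9 ± 23.1 to 0.465 ± 0.436 CPM (-6.30 ± 0.99, or -7.40 without p210 replicate 1). lncRNA:bxd, transcribed in the bithorax complex that patterns the abdomen, fell from 7.15 ± 4.47 to 0.199 ± 0.143 CPM (-5.12 ± 0.74). Among the rises, lncRNA:CR44316 was at 1.84, 2.09 and 31.8 CPM against 173.5, 129.4 and 129.7 CPM (3.53 ± 0.85, or 6.13 without control replicate 3). CR16735 was at 0.184, 0.11 and 5.87 CPM against 29.2, 24.2 and 25.8 CPM (3.53 ± 0.84), at 7.44 without control replicate 3 and 2.94 without control replicate 2. asRNA:CR45600 rose from 0.986 ± 0.712 to 9.71 ± 2.21 CPM (3.19 ± 0.59), but only 34.84% of its span is free of other genes and the strand setting of the counting is not given, so its counts are uncertain.

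Lists of marker and pathway genes are described by their counts and medians, beside the 26.9% higher, the 30.3% lower and the median of 0.05 of all tested genes. In bulk RNA, fewer cells of a type and less RNA per cell cannot be told apart. Of 12 plasmatocyte markers tested 5 rose and 0 fell, with a median of 0.31 (-0.24 when scaled to these same markers). The scavenger receptor gene Sr-CI rose by 1.5 ± 0.29 and He, which encodes the pan-hemocyte protein Hemese, by 1.16 ± 0.21. Lamellocyte markers summed to 4476.3, 4450.9 and 11577.7 CPM in the control and to 21504.9, 31457.1 and 29806.9 CPM in p210. The list includes shot, cher and ItgaPS4, described above, so it is not separate from them. A large part of the p210 sums came from shot and cher. Of 10 tested, 8 rose and 1 fell, and the median was 1.96 (1.46 under plasmatocyte scaling). Crystal cell markers summed to 5114.9 to 6930.7 CPM in the control and 4290.1 to 4860.6 CPM in p210, sums that lay apart by a narrow margin. Of 5 tested 1 rose and 1 fell, with 2 lower without control replicate 2 and 2 higher without control replicate 3 or p210 replicate 1.

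Markers of fat body, muscle and testis were mostly lower in p210, while neuronal and germline lists were mixed and the salivary gland list depended on single libraries. Fat body genes summed to 101323.6, 65165.2 and 40064.8 CPM in the control and to 6379.5, 4419.0 and 5091.3 CPM in p210, and 11 of 12 fell (median -3.43). Muscle genes summed to 1432.3 to 3214.0 CPM against 349.5 to 393.4 CPM, and 13 of 14 fell (median -3.22). Every control library exceeded every p210 library in both sums. Testis genes summed to 411.5, 1638.9 and 892.9 CPM against 168.5, 170.7 and 220.1 CPM, with 17 of 18 lower and a median of -2.61 (-2.0 without control replicate 2). dj, a gene of sperm development, was at 34.3, 170.8 and 104.7 CPM against 13.4 to 21.3 CPM (-2.65 ± 0.47). Control replicate 2 was again the highest. Midgut digestive genes fell in 20 of 35 cases (median -2.66, or -3.91 without p210 replicate 2) and cuticle genes in 15 of 25, with 2 rises (median -2.51, or -1.83 without control replicate 1). Salivary gland genes were high in single libraries of both groups, at 27.9, 169.4 and 3768.7 CPM in the control and 7.23, 452.9 and 16.1 CPM in p210. The glue gene Sgs5 alone was at 1650.8 CPM in control replicate 3 and 174.1 CPM in p210 replicate 2. The list had 2 of 7 lower and a median of -3.15, which was 0.08 with 0 lower without control replicate 3, -5.20 with 4 lower without p210 replicate 2, -2.28 with 1 lower without p210 replicate 1 and -2.56 without p210 replicate 3.

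Of 8 tracheal genes 6 fell and 1 rose (median -3.18, or -3.82 without control replicate 3). The sums of the list overlapped, at 151.6, 109.4 and 87.9 CPM in the control and 83.8, 93.4 and 81.5 CPM in p210. The chitin deacetylase genes verm and serp, which shape the tracheal lumen, fell from 21.8 ± 11.1 to 1.24 ± 0.345 CPM (-4.12 ± 0.48) and from 12.2 ± 5.63 to 1.03 ± 0.153 CPM (-3.55 ± 0.42). All 5 tested genes of the list of hormone synthesis fell (median -1.79, or -2.66 without p210 replicate 3), and 3 of them without control replicate 2. They included sro, of the prothoracic gland, at 79.1, 64.2 and 33.4 CPM against 6.5, 2.97 and 3.37 CPM, and shd, which makes the active hormone in other tissues such as fat body (-3.53 ± 0.38). Neuronal genes were mixed, with 3 higher and 5 lower of 15, and Syt1, a synaptic vesicle gene, fell from 56.2 ± 17.5 to 19.4 ± 3.52 CPM (-1.53 ± 0.32). Of 9 germline genes 4 rose and 4 fell. Without control replicate 2 only 1 rose, without p210 replicates 1 or 2 also 1, and without p210 replicate 3 there were 2. AGO3, of the piRNA pathway, rose from 163.1 ± 10.4 to 412.8 ± 182.4 CPM (1.34 ± 0.27), while stil fell by 2.71 ± 0.59. The part of these tissues' RNA in the falls of other genes was not tested.

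**Figure D4:**
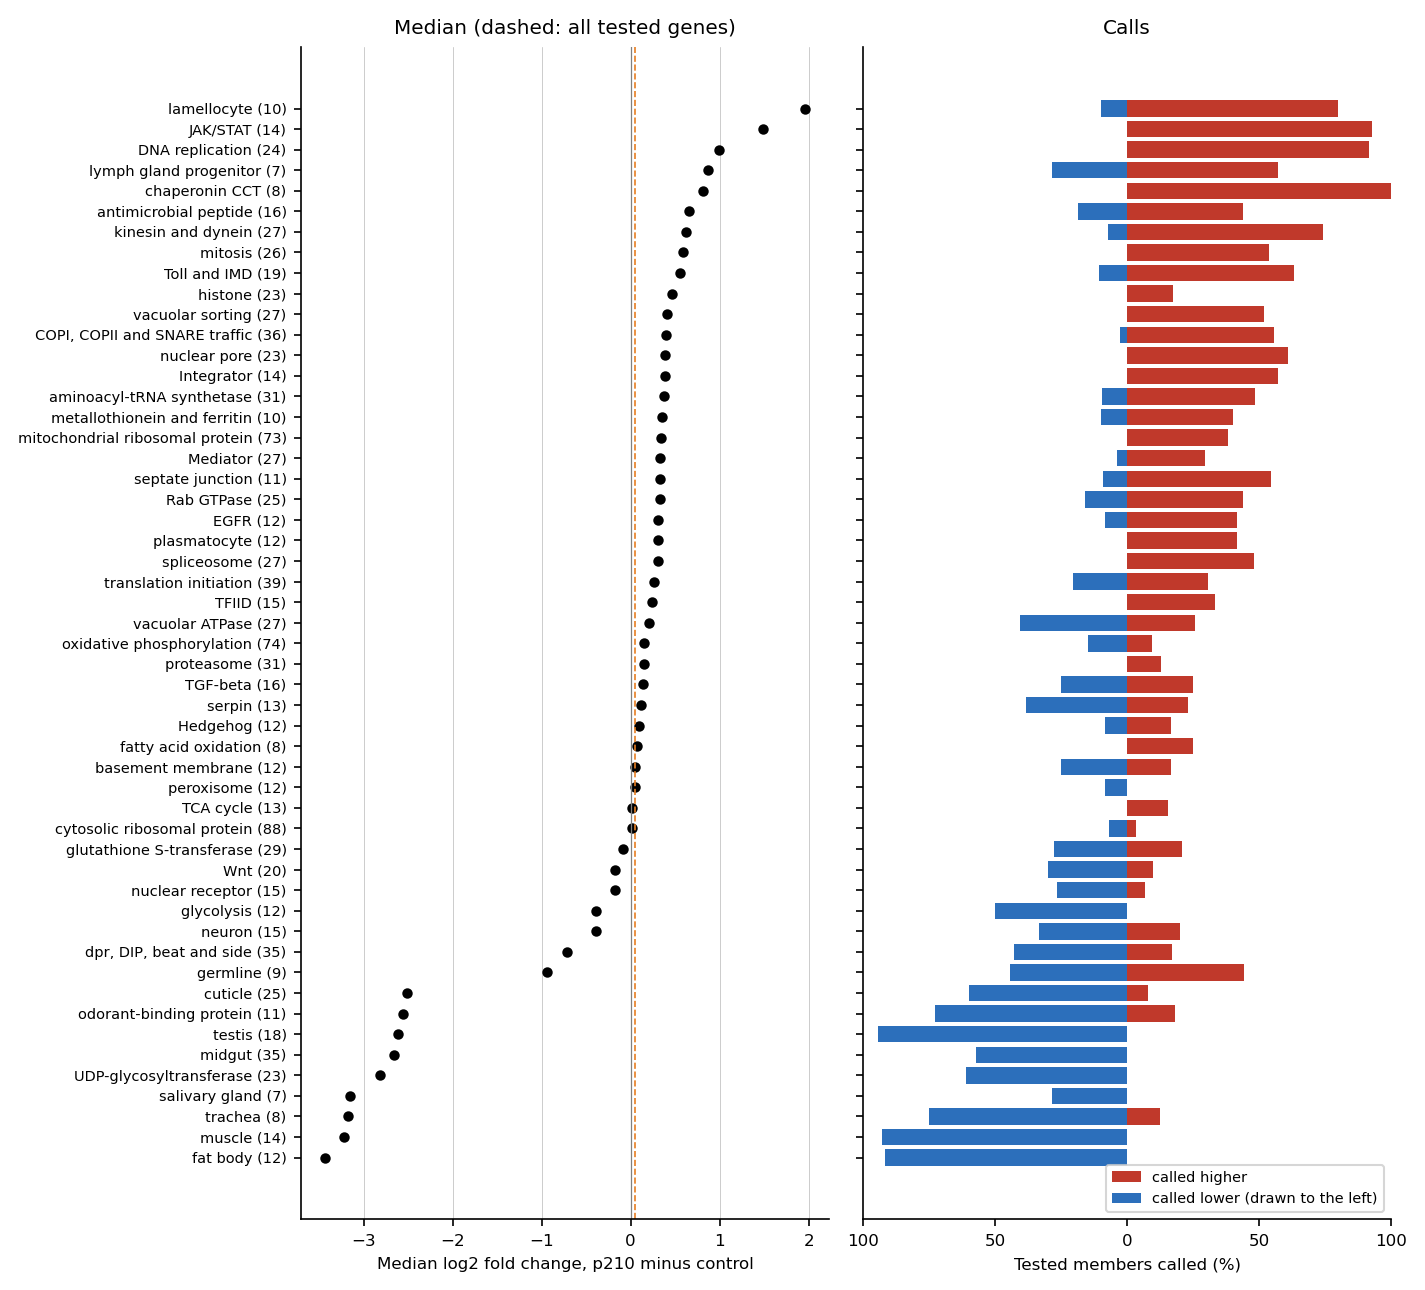
Left, the median log2 fold change p210 minus control of gene lists with at least 7 tested members (number in parentheses), with the median of all tested genes, 0.05, as a dashed line. Right, the share of each list called higher (red) and lower (blue, drawn to the left), such as 92.9% lower for muscle genes and 8 of 8 higher for the chaperonin CCT.

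Genes of cell growth and division were mostly higher or not called. Of 24 DNA replication genes 22 rose and 0 fell (median 0.99, and 0.51 with 5 rises under plasmatocyte scaling). Of 26 mitosis genes 14 rose and 0 fell (median 0.59, and 0.12 under that scaling), with 2 lower without control replicate 1. All 8 subunit genes of the CCT chaperonin, which folds actin and tubulin, rose (median 0.81). CCT2 was at 350.5, 266.0 and 385.0 CPM in the control and at 660.4, 618.3 and 558.6 CPM in p210 (0.87 ± 0.15, edgeR adjusted p = 0.00193). CCT5 went from 245.6 ± 41.4 to 455.1 ± 50.9 CPM (0.89 ± 0.15). Under plasmatocyte scaling the CCT median was 0.33 and no subunit was called.

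Nuclear and translation complexes shifted by less. Nuclear pore genes rose in 14 of 23 cases with no fall (median 0.39), 9 without control replicate 2 and 7 without p210 replicate 2. Nup35 was at 18.3, 12.6 and 20.7 CPM against 46.6, 44.2 and 39.0 CPM (1.33 ± 0.18), and Nup153 at 159.1 ± 15.5 and 323.7 ± 65.3 CPM (1.02 ± 0.16). Integrator genes, of a complex that processes small nuclear RNAs, rose in 8 of 14 (median 0.39), and in 4, 4 and 5 without control replicate 2, p210 replicate 2 and p210 replicate 3. IntS4 rose by 0.79 ± 0.13. Spliceosome genes rose in 13 of 27 with no fall (median 0.31). Aminoacyl-tRNA synthetase genes rose in 15 of 31 and fell in 3 (median 0.37), with LeuRS at 0.98 ± 0.14 and SerRS at 0.88 ± 0.14. Mitochondrial ribosomal protein genes rose in 28 of 73 with no fall (median 0.34), with mRpL2 at 0.76 ± 0.17 and mRpS35 at 0.68 ± 0.15. That count was 15 without control replicate 2, 17 without control replicate 3 and 9 without p210 replicate 1. Under plasmatocyte scaling the medians of these 5 lists lay between -0.16 and -0.10, and of the genes named here only Nup35 was still called.

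In 4 lists of housekeeping complexes, the members that fell were mostly copies at a low level. Of 74 oxidative phosphorylation genes 11 fell, and all 11 carry the suffix L of a like copy or an equivalent one (ATPsynGL, COX4L, COX6AL2, COX6CL, COX7AL, COX7CL, ND-20L, ND-24L, UQCR-14L, ATPsynbetaL and ATPsynepsilonL). This grouping was noticed after the values were seen. Together they summed to 66.2, 312.0 and 213.3 CPM in the control and to 28.6, 27.1 and 35.2 CPM in p210, and control replicate 2 was the highest control for 10. ATPsynbetaL was at 8.3, 30.2 and 25.2 CPM against 2.32, 3.54 and 3.51 CPM (-2.78 ± 0.51), while ATPsynbeta, the main copy of that ATP synthase subunit, was at 1079.2 ± 258.7 and 866.8 ± 151.7 CPM and not called (-0.32 ± 0.19), except under plasmatocyte scaling and with a minimum of 5 CPM (edgeR adjusted p = 0.0454 and 0.0407, in a range of 0.0407 to 0.788). The other copies of the list had 7 rises and 56 members not called, which summed to 6031.4 to 7084.0 CPM in the control and 6191.2 to 8038.2 CPM in p210. The 7 rises were 17, 4 and 3 without control replicates 1, 2 and 3, and 2 and 3 without p210 replicates 1 and 2.

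Translation initiation factors had 12 rises and 8 falls among 39 genes, with 7 rises without p210 replicate 2. The 8 that fell were eIF4E3, eIF4E4, eIF4E5, eIF4E6, eIF4E7, eIF3d2, eIF3f2 and eIF4H2, numbered copies of main factors. They summed to 129.9, 586.0 and 365.6 CPM in the control and 34.6 to 54.8 CPM in p210, and control replicate 2 was highest for all 8. eIF4E3, known for its role in male germ cells, was at 33.4, 148.9 and 92.8 CPM against 9.55, 8.0 and 9.88 CPM (-3.33 ± 0.48). Of 88 cytosolic ribosomal protein genes 6 fell and 3 rose, with 10, 1 and 12 rises without control replicate 1, control replicate 3 and p210 replicate 3. The 6 were RpS5b, RpL10Aa, RpS19b, RpS28-like, RpL37b and RpL22-like, with control means of 3.34 to 26.7 CPM, while the 79 not called had a median control mean of 1203.6 CPM. RpL22-like, a germline copy of RpL22, was at 8.67, 32.2 and 37.5 CPM against 2.43, 2.55 and 3.07 CPM (-3.29 ± 0.51).

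Genes of the vacuolar proton pump, which acidifies lysosomes, had 7 rises and 11 falls among 27. The rises had a median control mean of 250.0 CPM and the falls one of 9.34 CPM. The control means of the falls ranged from 1.65 to 433.4 CPM, so not all were at a low level. Together the falls summed to 623.8, 607.6 and 544.9 CPM in the control and to 288.9, 309.4 and 292.4 CPM in p210. Vha68-3 was at 18.3, 94.6 and 45.8 CPM against 5.99, 5.03 and 7.1 CPM (-3.14 ± 0.50, or -2.42 without control replicate 2), while Vha16-1 was at 1710.4 ± 442.8 and 1961.8 ± 169.7 CPM with no call. Only 3 rises were left without control replicate 2, p210 replicate 2 or p210 replicate 3.

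Membrane traffic and cytoskeletal genes were higher in many cases. Of 36 Sec, coat and syntaxin genes of the secretory route 20 rose and 1 fell (median 0.40), with 12 rises without p210 replicate 2 and 2 falls without p210 replicate 1. Sec6, an exocyst subunit gene, went from 22.6 ± 3.71 to 44.2 ± 4.44 CPM (0.96 ± 0.14). Of 27 Vps genes, which sort proteins to endosome and lysosome, 14 rose and 0 fell (median 0.41), with the ESCRT gene Vps25 at 0.88 ± 0.17. Of 25 genes with a Rab symbol 11 rose and 4 fell (median 0.33), with 2 falls without control replicate 2. Rab10 was at 152.5, 127.0 and 179.4 CPM against 315.5, 304.9 and 260.5 CPM (0.94 ± 0.14), and Rab2 was at 0.92 ± 0.15. Under plasmatocyte scaling the medians of these 3 lists were -0.09, -0.07 and -0.18, and none of their members was called higher.

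Microtubule motor genes had 20 rises and 2 falls among 27 (median 0.62, or 0.13 with 3 rises under plasmatocyte scaling). Klp61F, the spindle kinesin, rose from 43.4 ± 17.4 to 109.2 ± 6.19 CPM (1.32 ± 0.23). The 2 falls were the kinesin genes Klp59C (-3.07 ± 0.47, or -2.48 without control replicate 2) and Klp59D (-3.27 ± 0.45). Of 12 basement membrane genes 2 rose, Ppn and the laminin gene wb (22.4 ± 12.8 to 63.6 ± 14.1 CPM, 1.49 ± 0.34), and 3 fell, trol and the nidogen gene Ndg (-3.93 ± 0.84, or -3.09 without control replicate 1) among them. Septate junction genes rose in 6 of 11 and fell in 1, with 3 rises without control replicate 3, p210 replicate 2 or p210 replicate 3. cora was at 203.5, 201.0 and 460.6 CPM against 738.7, 1221.2 and 1123.6 CPM (1.83 ± 0.34), and Atpalpha, the sodium pump gene, rose by 1.74 ± 0.29.

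Of 13 genes of the TCA cycle 2 rose (15.4%) and 0 fell (median 0.02), both shares below those of all tested genes. The count of rises was 0 without control replicate 2 or p210 replicate 2 and 1 without p210 replicates 1 or 3. Of 12 glycolysis genes 6 fell and 0 rose (median -0.39, or -0.87 under plasmatocyte scaling). Pgi, the gene of glucose-6-phosphate isomerase, was at 175.8, 177.6 and 184.8 CPM in the control and at 87.0, 73.5 and 67.4 CPM in p210 (-1.24 ± 0.12, edgeR adjusted p = 0.000507). Its control libraries were nearly equal and far from p210. Tpi fell by 1.58 ± 0.20 and Gapdh1 by 1.36 ± 0.23, whereas pyruvate kinase, PyK, was at 484.3 ± 43.6 and 590.0 ± 51.9 CPM and not called (0.28 ± 0.12, or -0.21 under plasmatocyte scaling), except by DESeq2 (adjusted p = 0.0396, in a range of 0.0396 to 0.538). Of 23 UDP-glycosyltransferase genes, which conjugate foreign compounds, 14 fell and 0 rose (median -2.82). Odorant-binding protein genes fell in 8 of 11 and rose in 2 (median -2.56).

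Receptors and signalling genes moved in both directions, as did all tested genes (26.9% higher, 30.3% lower). In the TGF-beta, Wnt and nuclear receptor lists both shares were below these. The TGF-beta list had as many rises as falls, with a median of 0.14. In the Wnt and nuclear receptor lists the higher share was much further below that of all tested genes than the lower share was. Both of these lists had a median of -0.17, against 0.05 for all tested genes. Whether such a lean is more than lists this small would show was not tested. The EGFR list had a larger share higher and a smaller share lower than all tested genes. In the TGF-beta list of 16 genes 4 rose and 4 fell, with 2 falls without control replicate 1 or p210 replicate 3. The type II receptor gene wit was at 38.2, 38.4 and 29.2 CPM against 1.81, 2.9 and 2.71 CPM (-3.84 ± 0.55), and the activin-like ligand gene daw went from 68.5 ± 8.80 to 5.99 ± 1.37 CPM (-3.51 ± 0.38). In the Wnt list of 20, 2 rose and 6 fell, with 4 rises without p210 replicate 1. The receptor genes fz and fz2 fell by 1.85 ± 0.31 and 1.64 ± 0.37, while Apc, a negative regulator, rose by 1.48 ± 0.25. In the EGFR list of 12, 5 rose and 1 fell. The one that fell was the receptor gene Egfr, from 83.1 ± 33.9 to 23.1 ± 3.03 CPM (-1.84 ± 0.34), while the transcription factor gene pnt rose from 182.2 ± 75.5 to 672.8 ± 264.4 CPM (1.88 ± 0.34). Without control replicate 2 that list had 2 rises and 3 falls, and without p210 replicates 2 or 3 it had 2 rises. Of 15 nuclear receptor genes 1 rose and 4 fell. Among those that fell were svp (-2.91 ± 0.32) and the ecdysone-induced gene Eip78C (-2.34 ± 0.31). EcR, the ecdysone receptor gene, was at 326.9 ± 15.9 and 294.1 ± 108.1 CPM. It was not called (-0.15 ± 0.22), except under plasmatocyte scaling (-0.70, edgeR adjusted p = 0.0237) and without p210 replicate 3 (-0.49, edgeR adjusted p = 0.0172), in a range of 0.0172 to 0.972.

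JAK/STAT genes rose in 13 of 14 cases with no fall (median 1.49, and 0.95 with 8 rises under plasmatocyte scaling). Of 19 Toll and IMD pathway genes 12 rose and 2 fell (median 0.56, and 0.08 with 6 rises and 3 falls under that scaling). The receptor gene Tl was at 211.0, 176.6 and 293.1 CPM against 608.0, 656.4 and 810.6 CPM (1.61 ± 0.20, edgeR adjusted p = 0.000924). Dif, the NF-kappaB factor of the Toll pathway, rose by 2.26 ± 0.35, or 2.85 without control replicate 3, and IKKbeta, a kinase gene of the IMD pathway, by 1.54 ± 0.19. Antimicrobial peptide genes had 7 rises and 3 falls among 16 and a median of 0.66, which was 1.61 without control replicate 2 and -0.15 without p210 replicate 1. Without control replicate 1, 5 fell. CecC, a cecropin gene, was at 11.6, 19.7 and 22.5 CPM against 99.5, 87.7 and 121.8 CPM (2.50 ± 0.32), whereas DptB, a diptericin gene, was at 115.3, 87.3 and 64.6 CPM against 16.2, 7.86 and 11.5 CPM (-2.90 ± 0.36). Cecropin and diptericin thus moved in opposite directions with no overlap between groups. Spn88Eb, a serpin gene, rose from 155.5 ± 101.4 to 623.8 ± 91.5 CPM (2.00 ± 0.42).

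Direction also differed by position in the genome. Genes on X had a median of 0.24, with 541 higher and 372 lower of 1535 (35.2% and 24.2%), against a median of 0.01 with 2045 higher and 2559 lower of 8124 on the arms of chromosomes 2 and 3 (25.2% and 31.5%). Of 17 Y-linked genes 16 fell and 0 rose (median -2.66). Gene length went with direction: in 5 equal classes of gene span, from short to long, the medians were -0.21, -0.02, 0.07, 0.14 and 0.20, and 39.5% of the shortest class but 27.9% of the longest were lower. Under plasmatocyte scaling all these medians moved down and kept their order. X was at -0.25, against -0.55 to -0.44 on the arms of chromosomes 2 and 3. The longest class was at -0.33 and the shortest at -0.69.

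Some falling genes lay side by side. There were 149 runs of at least 4 adjacent tested genes that were all called and at least 2-fold lower, with 876 genes, and 9 such runs upward, with 37 genes. More genes were lower than higher to begin with (26.6% against 8.53%), and no reference number of runs was computed. The longest held 27 genes on 2R from 23087177 to 23355321, among them Klp59C, Klp59D, RpL22-like, the meiosis gene ord and the proteasome copy Prosbeta5R1. It summed to 238.7, 1100.6 and 695.7 CPM in the control and to 78.6, 63.7 and 103.3 CPM in p210, with a median of -3.07, and control replicate 2 was the highest control for 25 of the 27. A run of 18 genes on 2L (21798043 to 22105512) had a median of -2.81 and control replicate 2 highest for 17. A run of 12 on 2L (8752285 to 8942105) around the alpha-mannosidase genes had control replicate 1 highest, at 1550.9 CPM against 260.3 and 130.0 CPM. Among the upward runs were the Bomanin genes BomS1, BomBc2, BomS2 and BomS3 on 2R, whose products act downstream of Toll. They summed to 1.29, 2.32 and 0.473 CPM against 26.1, 7.65 and 9.51 CPM. Reads could be split among these near copies, so single members are uncertain. The 4 genes around Sp212 on 3R summed to 0.922, 1.98 and 37.6 CPM against 136.0, 139.5 and 112.4 CPM.

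Some genes held steady. Of 1945 genes with a mean of at least 100 CPM over the 6 libraries, 364 had a 95% interval of the log2 fold change within -0.5 to 0.5. The exocyst gene Sec8 was among the narrowest, at 138.9, 130.6 and 132.3 CPM in the control and 142.7, 143.5 and 140.2 CPM in p210 (0.08 ± 0.09). Its sign turned under plasmatocyte scaling (-0.42), as did those of Hml (-0.42), LanA (-0.32) and Vha16-1 (-0.31).

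The T315I libraries, which share the same controls, were set beside p210 for the genes named above. The direct test of T315I against p210 called 1 gene of 9978 (0.01%). That gene was dpr4, with 1 count in each T315I library against 119, 374 and 218 counts in p210, or 228-fold (95% counting interval 77.6 to 1110, edgeR adjusted p = 0.0159). Other genes had lower T315I values with no call. Ca-beta was at 31.6 ± 16.7 CPM in p210 and 4.13 ± 0.955 CPM in T315I (edgeR adjusted p = 0.193), ChLD3 at 26.9 ± 14.3 and 6.22 ± 0.985 CPM (0.424) and asRNA:CR45600 at 9.71 ± 2.21 and 1.28 ± 0.662 CPM (0.424). CG10407 was at 50.6 ± 4.82 CPM in p210, 20.7 ± 2.66 CPM in T315I and 15.3 ± 2.41 CPM in the control (edgeR adjusted p = 0.074 between p210 and T315I). In each of these 4 genes every T315I library was below every p210 library. The share of all genes with that order was not computed. These 4 were named for their rises in p210, a choice that favours lower T315I values. Tie (59.1 ± 19.3 and 30.7 ± 7.42 CPM) and Lsp1gamma (1209.0 ± 241.5 and 2898.0 ± 1182.9 CPM) differed in their means with no call. CG18754 (1070.9 ± 197.1 and 911.6 ± 86.9 CPM) and shot (8425.6 ± 2512.2 and 8279.8 ± 1315.4 CPM) differed by less than the spread of p210. With the wider spread of the control in the same fit, a missed threshold does not show that the kinase forms act alike.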

How the data were processed

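Total RNA of larval hemocytes was sequenced from stranded, ribosomal-RNA-depleted libraries, per the labels' protocols. The submitters' processing notes name FastQC 0.11.8, HISAT2 2.1.0, featureCounts 2.0.1 and the build dm6. How strand, annotation release and reads with several matches were set is not given in the sources used here. Raw counts were analysed as the authors deposited them. Coordinates come from Ensembl release 115 of the same assembly, matched by symbol.

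Counts were tested with edgeR 4.0.16 (R 4.3.3): filterByExpr, TMM factors, and a robust quasi-likelihood fit of all 9 libraries with 1 mean per group. P-values were adjusted over all tested genes by the Benjamini-Hochberg method and called under 0.05. Log2 fold changes are p210 minus control, with the SE of the fit. The fit was checked on simulated counts. Replicates are labelled as separate, and p-values measure the spread between these pools. Intervals of count ratios are 95% and cover counting error only. Genes were named by rules of size, level, p and list, plus Hml, NimC1 and Abl. CG46302, the low copies of housekeeping complexes and the band of falls were singled out after their values were seen. The members and the 60 lists were chosen with earlier results of these data known. A cytochrome P450 list, which its symbol rule also filled with cyclophilins, was left out. Alternatives used DESeq2 1.42.0, limma-voom (limma 3.58.1), other scalings and filters, the 6 libraries alone, a replicate block and the omission of each library.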

Additional observations from a re-analysis of the deposited data

Results flagged for a closer look

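The transgene groups differed in dpr4. The log2 fold change T315I minus p210 was -7.71 ± 0.74 (edgeR adjusted p = 0.0159), tested directly between the 3 libraries of each group. With 3 counts in all T315I libraries, that fitted value is no bound on the size. The counts were 711 in p210 and 3 in T315I, against 7 in the control, and all 3 p210 libraries were higher than all T315I libraries.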

How the results depend on the processing

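Over 15 alternatives, the 124 named genes gave 1847 values, of which 1757 kept their direction and their side of the threshold, 68 lost the call, 7 gained it and 15 turned. Of 114 called genes, 87 were called under every alternative. Scaling to plasmatocyte markers left 514 genes higher and 317 at least 2-fold higher. A minimum of 5 CPM in 3 libraries, which tests fewer genes, called 3671, with 1590 higher, 509 at least 2-fold higher and 1481 at least 2-fold lower. The 6 libraries alone, without T315I in the fit, called 4259 of 9594 tested genes, 1595 higher and 2664 lower. Leaving out each library gave 4796 to 6222 called genes, 2098 to 2962 higher, 2698 to 3260 lower, 651 to 1040 at least 2-fold higher and 2410 to 2842 at least 2-fold lower. Signs turned under plasmatocyte scaling for Act5C (-0.10), Hml (-0.42), LanA (-0.32), PyK (-0.21), Vha16-1 (-0.31) and Sec8 (-0.42), with the 5 CPM minimum for Hml (-0.04) and Sec8 (-0.11), with upper-quartile scaling for Sec8 (-0.06) and with no filter for eEF1alpha1 (0.03). With each library left out in turn, eEF1alpha1 lay between -0.07 and 0.11, Hml between -0.0 (without p210 replicate 3) and 0.39, EcR between -0.49 and 0.05 (without p210 replicate 2) and Sgs5 between -7.97 and 1.11 (without control replicate 3). The cause of these changes was not tested. Genes near 3 counts per library are limited by the shallower control.

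The labels do not say whether same-numbered libraries were prepared together. Deviations of same-numbered control and p210 libraries correlated at 0.19, -0.316 and 0.00766, values that cannot settle it with so few libraries. A fit with the replicate block called 5299 genes, 2461 higher and 2838 lower, and among the named genes it lost the call of Act5C alone (edgeR adjusted p = 0.0526, in a range of 0.0125 to 0.817).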
